A study of Mus musculus with 6 samples.

Results

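Cells obtain cholesterol by making it and by taking it up in lipoproteins, and they lose it by efflux. The genes examined here cover these routes in adipose tissue of mouse offspring. The list holds 31 genes, of which 18 encode enzymes of synthesis, 4 encode the sterol-sensing system, 5 act in lysosomal release, transport and storage of cholesterol that has been taken up, and 4 act in efflux. A gene was measured here when the platform annotation gave a probe set its symbol alone, and where several probe sets did, the brightest on average was used. By that rule 27 of the 31 genes were measured, among 22180 genes in all: 16 of synthesis, 4 of sterol sensing, 4 of lysosomal release and transport, and 3 of efflux. Acat2, Idi1, Soat1 and Nr1h2 had no such probe set and have no expression values here, but their promoter windows were counted.

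The series compared adipose tissue of mice aged 32 weeks whose mothers had received either a diet restricted in chromium, a trace metal, or a control diet. Each group had 3 samples of total tissue RNA, labelled with biotin and hybridised to 1 array each. Genotype, strain, sex, fat depot, the offspring's own diet and the level of chromium in the diets are not stated in the labels. Samples are numbered within a group, with no statement that each came from its own animal or litter, and p-values then measure only the spread between these samples, which may be technical.

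Cholesterol is built from acetyl-CoA through mevalonate, the isoprenoid farnesyl diphosphate, squalene and lanosterol. When membranes of the endoplasmic reticulum are poor in cholesterol, the escort protein SCAP carries SREBP2 (gene Srebf2) to the Golgi, where it is cut and becomes a transcription factor for nearly every gene of the route; INSIG proteins hold the pair back when sterols are plentiful. When cholesterol is in excess, oxysterols activate the liver X receptors, which induce the efflux pumps ABCA1 and ABCG1. Fat tissue is a large store of free cholesterol, most of which reaches adipocytes in lipoproteins.

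Promoter sequences were set beside the genes because the synthesis genes are regulated together through short promoter elements. RefSeq windows of 300 bases (GRCm38.p6, 250 before to 50 after an annotated start) were at hand for 25 of the 31 listed genes. Of the 25, 21 were measured on the arrays. No window was at hand for Fdps, Fdft1, Sqle, Stard4, Npc1 and Abcg1. CCAAT, the box bound by NF-Y, a partner of SREBP2, was searched on both strands. It stood in a window of 14 of 15 synthesis genes, 3 of 4 sterol-sensing genes, 3 of 3 genes of release, transport and storage, and 0 of 3 efflux genes, against 41.1% of all 27025 genes with a window. The letters TCACNCCAC, a form of the sterol regulatory element, occurred on either strand in 1 of the 25 genes, Hmgcs1, and in 1.44% of all genes. The GC box GGGCGG was in 22 of 25 genes and in 38.2% of all, and the E-box CACGTG in 6 of 25 and in 8.09% of all. A match is a run of letters and not a measured binding site.

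Windows of 5 of the genes described below are printed 5′ to 3′ on the gene's strand, with CCAAT, its reverse complement and TCACNCCAC in capitals. Hmgcs1 (chr13:119690101-119690400, + strand) carries the element 137 bases before its start and 4 boxes. Hsd17b7 (chr1:169969156-169969455, - strand) carries 3 boxes, and Lss (chr10:76531355-76531654, + strand) and Srebf2 (chr15:82147019-82147318, + strand) carry 1 each. Abca1 (chr4:53159846-53160145, - strand) carries none.
Hmgcs1: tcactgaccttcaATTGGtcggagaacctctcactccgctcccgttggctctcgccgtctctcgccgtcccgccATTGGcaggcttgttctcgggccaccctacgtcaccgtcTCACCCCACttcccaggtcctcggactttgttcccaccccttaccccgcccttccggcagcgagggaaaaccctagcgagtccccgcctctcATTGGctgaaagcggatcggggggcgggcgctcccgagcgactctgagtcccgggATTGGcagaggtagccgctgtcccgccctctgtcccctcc
Hsd17b7: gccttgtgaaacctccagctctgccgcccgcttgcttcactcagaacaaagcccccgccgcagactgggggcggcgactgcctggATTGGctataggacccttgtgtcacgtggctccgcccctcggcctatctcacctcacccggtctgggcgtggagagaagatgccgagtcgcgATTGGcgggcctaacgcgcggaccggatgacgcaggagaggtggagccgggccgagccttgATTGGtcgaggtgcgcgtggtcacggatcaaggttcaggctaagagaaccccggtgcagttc
Lss: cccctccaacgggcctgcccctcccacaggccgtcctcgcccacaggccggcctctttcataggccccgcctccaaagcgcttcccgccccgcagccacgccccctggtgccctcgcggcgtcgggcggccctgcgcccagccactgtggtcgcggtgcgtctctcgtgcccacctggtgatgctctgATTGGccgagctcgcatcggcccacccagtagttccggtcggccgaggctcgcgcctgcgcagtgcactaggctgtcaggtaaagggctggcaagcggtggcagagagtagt
Srebf2: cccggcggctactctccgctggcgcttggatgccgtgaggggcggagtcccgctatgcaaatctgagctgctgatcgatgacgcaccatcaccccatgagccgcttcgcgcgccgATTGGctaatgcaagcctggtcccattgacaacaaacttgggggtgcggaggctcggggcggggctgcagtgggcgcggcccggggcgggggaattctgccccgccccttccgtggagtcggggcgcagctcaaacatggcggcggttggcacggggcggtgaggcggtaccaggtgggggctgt
Abca1: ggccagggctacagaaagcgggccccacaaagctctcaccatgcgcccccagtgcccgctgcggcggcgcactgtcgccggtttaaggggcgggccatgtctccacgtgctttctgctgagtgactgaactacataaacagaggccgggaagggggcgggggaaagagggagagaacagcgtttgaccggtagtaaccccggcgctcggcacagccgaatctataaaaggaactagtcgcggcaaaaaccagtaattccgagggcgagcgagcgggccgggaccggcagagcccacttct

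All arrays carried transcripts of adipocytes. Fabp4, the adipocyte fatty acid binding protein, was at 13.53 to 13.72 on the deposited log2 scale. Cidec, a lipid droplet protein, was at 12.77 to 13.09. RNA of other tissues differed between arrays of the same group. The mean of 7 hepatocyte markers was 11.33 and 10.90 on chromium restriction arrays 1 and 3, 6.55 on array 2 and 6.56 to 6.94 on the controls. The mean of 10 intestinal markers was 5.47, 6.45 and 5.45 on chromium restriction arrays 1, 2 and 3 and 5.16 to 5.30 on the controls, and array 2 was the highest array for 7 of the 10. In the chromium restriction group 9 of the 10 had higher means, 3 (Fabp2, Vil1 and Lgals4) lay above every control on all 3 arrays, and 1 passed the test. That gene, Fabp2, encodes a fatty acid carrier of enterocytes and was at 7.30, 7.15 and 7.31 on chromium restriction arrays 1, 2 and 3 and at 5.27, 5.50 and 5.04 on control arrays 1, 2 and 3, a difference of 1.98 ± 0.13 (log2, SE, n = 3; adjusted p = 0.00358 in limma). The Fabp2 row carries no extra digits, but its call was lost when the rows that do were left out. There, and with replicate number as a block, 0 of all genes passed in limma. On chromium restriction arrays 1 and 3 the raised mean of the list came largely from Fabp2. Sis was at 4.62 and 4.55 there and at 4.53 to 4.60 on the controls. Ucp1, the uncoupling protein of brown fat, was at 10.25 on control array 1, 7.37 on control array 3, 4.89 on control array 2 and 4.87 to 4.94 on the chromium restriction arrays. Macrophage markers, 12 in all, had their highest mean on chromium restriction array 1 (8.93) and their lowest on control array 1 (8.17). Array medians ran from 5.44 to 5.57, and correlations between arrays across probe sets from 0.95 to 0.99. In bulk tissue, fewer cells of a type and less RNA per cell cannot be told apart.

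None of the 27 cholesterol genes passed the test between groups. In limma, 0 of 27 passed a Benjamini-Hochberg adjusted p of 0.05 over all genes, where 0.194% of the 22180 genes (43) did, and no member lay among the 52 tested genes whose deposited values carried extra digits. With the rows that carried extra digits left out, 0 of all genes passed in limma, so the share of 0.194% rested on including them. At an unadjusted p of 0.05, 6 of 27 members (22.2%) passed in limma, against 5.95% of all genes and 9.45% of the genes above the median gene's level, where all 27 members lay. The groups did not overlap for 7 of 27 (25.9%), against 9.60% of all genes and 11.5% of those above the median level. Of these 7, Hsd17b7, Srebf2 and Stard4 were higher on all chromium restriction arrays, a pattern that 3.53% of all genes had. Fdft1, Dhcr7, Nr1h3 and Abca1 were lower on all of them, as were 6.06% of all genes. These shares were not tested against each other. Without chromium restriction array 2, 1 member (Fdft1) and 439 genes in all passed; without chromium restriction array 3 or any 1 control, 0 members and 24 genes passed.

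**Figure D1:**
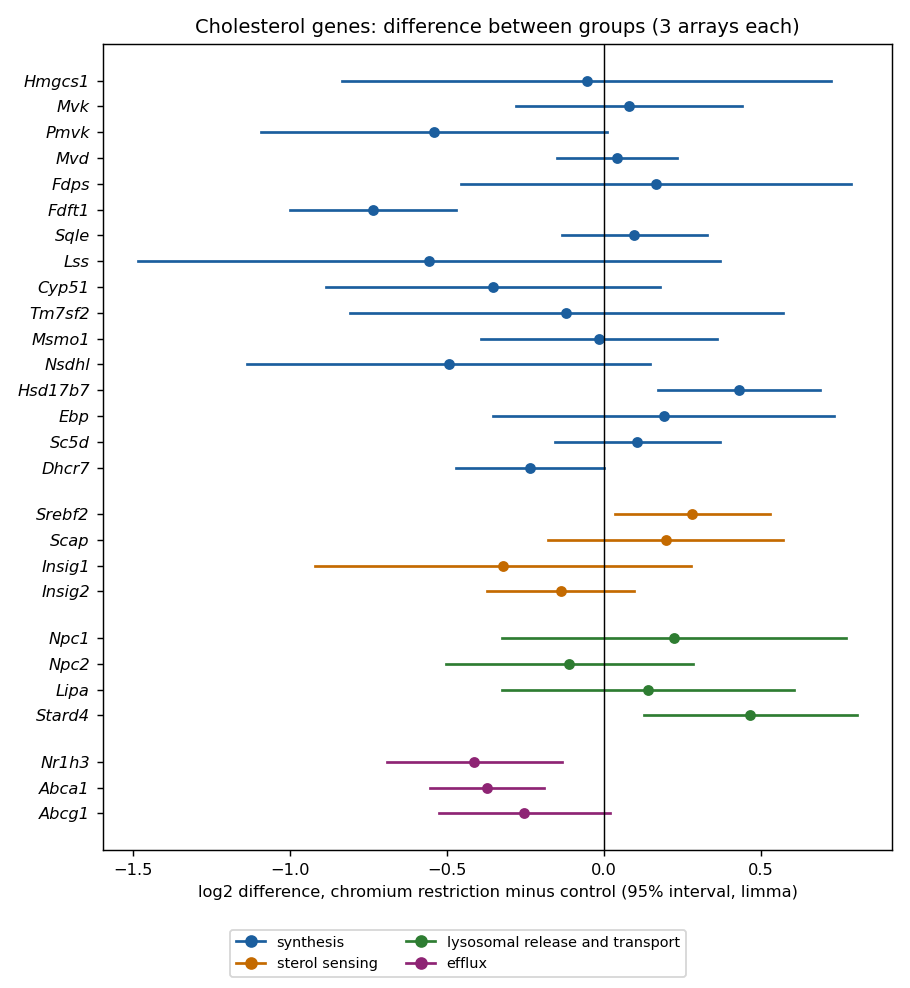
Log2 difference of each of the 27 measured cholesterol genes, chromium restriction minus control, with the 95% interval from limma (3 arrays per group), coloured by role. Fdft1 lies furthest below 0, at -0.74, the 3 efflux genes all lie below 0, and the other synthesis genes fall on both sides.

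Synthesis genes showed no common direction. Of the 16 measured, 7 had higher and 9 had lower means in the chromium restriction group, with a median log2 difference of -0.035 where the median over all genes was -0.018; with 1 array left out it lay between -0.17 and 0.070. Single differences ran from -0.74 (Fdft1) to 0.43 (Hsd17b7). None of the 16 passed over all genes, and the smallest adjusted p in limma was 0.163.

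Fdft1, squalene synthase, which commits farnesyl diphosphate to sterols, differed most. It was listed at 8.53, 8.82 and 8.78 on chromium restriction arrays 1, 2 and 3 and at 9.55, 9.48 and 9.31 on control arrays 1, 2 and 3. Every chromium restriction array lay at least 0.49 below every control. The difference was -0.74 ± 0.11 (log2, SE, n = 3 per group), a 1.67-fold lower level with a 95% interval of -0.999 to -0.47, and an unadjusted p of 0.000427 and an adjusted p of 0.163 in limma. Without chromium restriction array 2, which had the highest mean of the intestinal markers, it was -0.79 with an adjusted p of 0.0409, past the threshold; over all alternatives the adjusted p ran from 0.0409 to 0.99995. With the rows that carried extra digits left out, the difference stayed at -0.74 and the adjusted p was 0.812 in limma. With the 7 hepatocyte markers as a covariate the difference was -0.61 (adjusted p = 0.538 in limma). Without the 2 arrays rich in them, 1 array against 3, it was -0.63. Those markers were high only on these 2 arrays, so both values rest mainly on array 2 against the controls.

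Enzymes on either side of squalene synthase had smaller differences. Fdps, which makes its substrate farnesyl diphosphate, ran from 6.93 to 7.48 in the chromium restriction group and from 6.55 to 7.48 in the controls, so the first lay inside the second. Its difference was 0.17, with a 95% interval of -0.46 to 0.79. Sqle, the squalene epoxidase that acts on the product, ran from 6.10 to 6.30 and from 6.02 to 6.24, a difference of 0.097 with an interval of -0.13 to 0.33.

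Hsd17b7, a keto-reductase of the steps that strip methyl groups from lanosterol, was the synthesis gene with the highest difference. It was listed at 6.14, 6.06 and 6.26 on chromium restriction arrays 1, 2 and 3 and at 5.59, 5.67 and 5.91 on control arrays 1, 2 and 3. The groups did not overlap, with 0.15 between the nearest arrays. The difference was 0.43 ± 0.11 (log2, SE, n = 3), with an adjusted p of 0.636 in limma. It stayed between 0.34 and 0.52 under the alternatives tried. Its mean level stood at percentile 51.2 of all genes, and no background level of the arrays was at hand.

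Dhcr7, the reductase that yields cholesterol itself, was at 5.99, 6.16 and 6.24 against 6.31, 6.49 and 6.30 in the controls. Its groups were separate by 0.061 only. The difference was -0.24 ± 0.10 (log2, SE, n = 3) with an unadjusted p of 0.0505 and an adjusted p of 0.817 in limma.

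**Figure D2:**
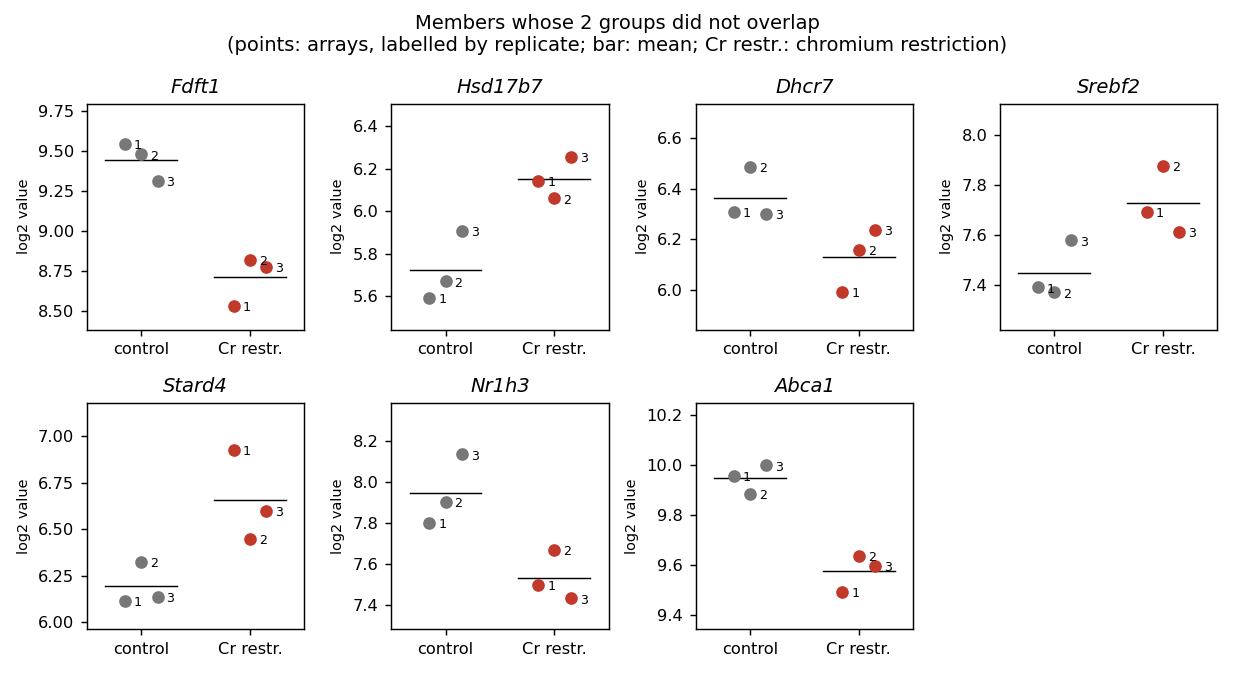
Deposited log2 value on each array for the 7 cholesterol genes whose groups did not overlap; points are arrays numbered by replicate, grey for control and red for chromium restriction, and bars are means of 3 arrays. Fdft1 shows the widest gap between nearest arrays (0.49) and Srebf2 the narrowest (0.035).

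Another set of synthesis genes varied more inside the chromium restriction group than between groups. Lss, lanosterol synthase, was at 6.40 and 6.21 on chromium restriction arrays 1 and 3 but at 7.57 on array 2, with controls at 6.999, 7.68 and 7.17. Nsdhl, a decarboxylase of the demethylation steps, was at 8.32 and 8.05 on arrays 1 and 3 and 8.80 on array 2, with controls at 8.43, 9.23 and 8.99. Pmvk, phosphomevalonate kinase, was at 7.88 and 8.02 on arrays 1 and 3 and 8.59 on array 2, with controls at 8.50, 9.04 and 8.58. In all 3 genes arrays 1 and 3 lay below every control and array 2 lay inside the control range.

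The group difference of these genes therefore rested on which arrays were counted. It was -0.56 ± 0.38 for Lss, -0.49 ± 0.27 for Nsdhl and -0.54 ± 0.23 for Pmvk (log2, SE, n = 3), with adjusted p of 0.927, 0.854 and 0.817 in limma. Against the 3 controls, array 2 alone differed by 0.29 for Lss, -0.082 for Nsdhl and -0.11 for Pmvk. Arrays 1 and 3, the pair below every control, are those rich in hepatocyte transcripts. Array 2 has the highest mean of the intestinal markers. On arrays 1 and 3 that mean was above the controls too, largely through Fabp2 (7.30 and 7.31 against 5.04 to 5.50). Vil1 and Lgals4 also lay above every control there, while Sis and Muc13 were near control values. With the hepatocyte markers as a covariate the differences were 0.22 for Lss and -0.14 for both Nsdhl and Pmvk. The covariate was high only on arrays 1 and 3, so these values too rest mainly on array 2 against the controls. The part of intestinal RNA was not tested.

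Hmgcs1, the HMG-CoA synthase of the mevalonate steps, had the same order inside the group. It was at 10.20 and 10.28 on chromium restriction arrays 1 and 3 and 11.10 on array 2, and at 10.04, 10.93 and 10.77 on control arrays 1, 2 and 3. The groups overlapped, and control array 1 was the lowest of all 6. The difference was -0.054, with a 95% interval of -0.83 to 0.72. Cyp51, the demethylase of lanosterol, was at 6.45, 7.15 and 6.91 against 6.86, 7.38 and 7.34, a difference of -0.35 with an interval of -0.89 to 0.18.

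Across the synthesis genes, chromium restriction array 2 exceeded arrays 1 and 3 in 9 of 16 genes (56.2%), where 34.1% of all genes had that order. Control array 1, which had the highest Ucp1, was the lowest control in 11 of 16, where it was the lowest control for 34.2% of all genes. The mean over the 16 genes was 7.52, 7.74 and 7.47 on chromium restriction arrays 1, 2 and 3 and 7.48, 7.85 and 7.77 on control arrays 1, 2 and 3. Control array 1 thus lay beside chromium restriction arrays 1 and 3. Without control arrays 1 and 3, the 2 with raised Ucp1, the median difference of the synthesis genes was -0.32, and without the 2 hepatocyte-rich arrays it was 0.059.

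**Figure D3:**
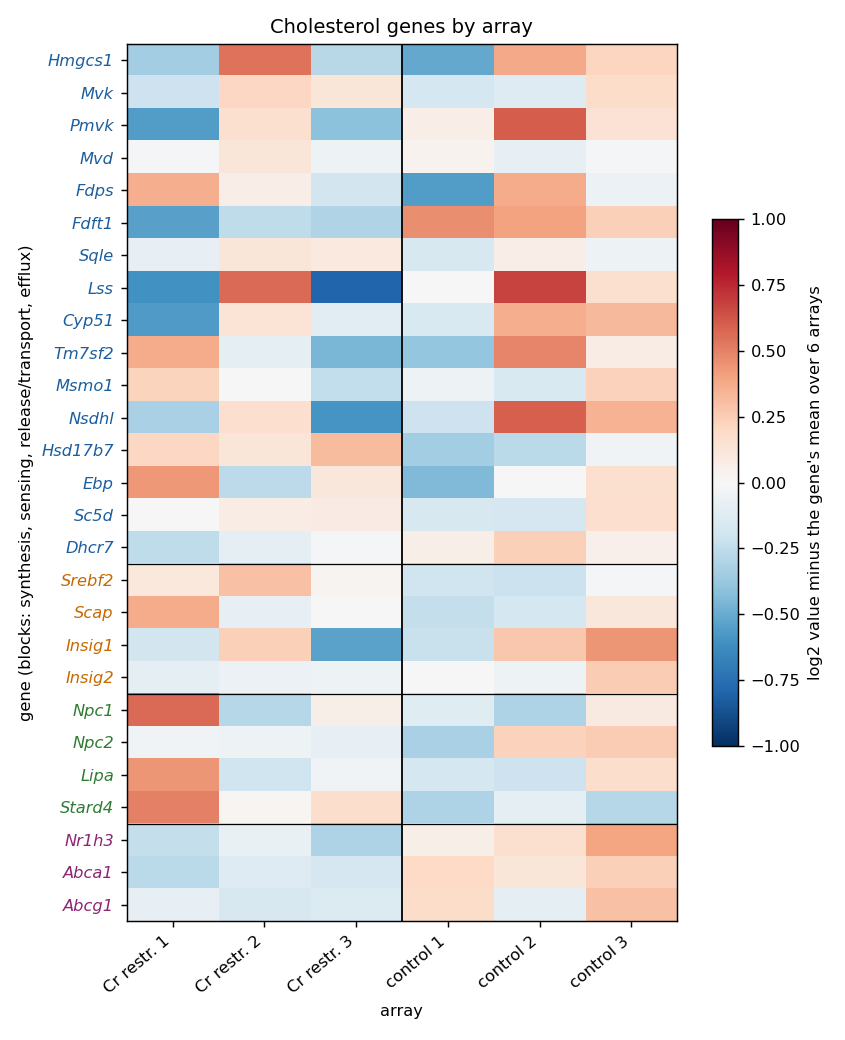
Log2 value of each cholesterol gene minus its own mean over the 6 arrays, from blue (lower) to red (higher), with genes in rows by role and arrays in columns. Lss, Nsdhl, Pmvk and Hmgcs1 are blue on chromium restriction arrays 1 and 3 and red on array 2, and the 3 efflux genes are blue on all 3 chromium restriction arrays.

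The remaining synthesis genes had overlapping groups. Mvk, mevalonate kinase, and Mvd, mevalonate diphosphate decarboxylase, differed by 0.079 and 0.041. Msmo1, the methyl sterol oxidase, differed by -0.016 and Tm7sf2, a sterol reductase, by -0.12. Ebp, the sterol isomerase, differed by 0.19 and Sc5d, the sterol desaturase, by 0.11. Intervals were narrow for Mvd (-0.15 to 0.23) and wide for Tm7sf2 (-0.81 to 0.57), whose chromium restriction arrays ran from 6.95 to 7.77.

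In the sterol-sensing system, Srebf2 had higher values and Insig1 had a lower mean in the chromium restriction group, and none of the 4 genes passed. Srebf2, the transcription factor gene, was at 7.69, 7.87 and 7.61 on chromium restriction arrays 1, 2 and 3 and at 7.39, 7.37 and 7.58 on control arrays 1, 2 and 3. The groups were separate, but control array 3 and chromium restriction array 3 were only 0.035 apart. The difference was 0.28 ± 0.10 (log2, SE, n = 3), 1.22-fold, with an adjusted p of 0.817 in limma. It was 0.41 with the hepatocyte markers as a covariate and 0.43 on array 2 alone against the controls.

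Scap, the escort gene, was at 8.11, 7.65 and 7.74 against 7.50, 7.56 and 7.85 in the controls. Array 1 was the highest and the groups overlapped, with a difference of 0.20 ± 0.15 (log2, SE, n = 3). A dimmer second probe set of Scap differed by -0.036. Insig1, itself a target of SREBP2, was at 10.32, 10.74 and 9.96 against 10.28, 10.77 and 10.94, a difference of -0.32 ± 0.25 (log2, SE, n = 3). Its array 3 was the lowest of 6 and its array 2 stood near control array 2. Insig2, its relative, ran from 7.79 to 7.85 against 7.84 to 8.14 and differed by -0.14, with an interval of -0.37 to 0.097. The median of the 4 genes was 0.029, and lay between -0.032 and 0.13 with 1 array left out.

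Genes for cholesterol arriving by uptake had small differences except Stard4. Lipoprotein cholesterol esters are split in lysosomes by the acid lipase LIPA, and NPC2 and NPC1 pass the freed cholesterol out. Lipa was at 10.19, 9.56 and 9.72 against 9.58, 9.54 and 9.93 in the controls. Npc1 was at 8.55, 7.70 and 8.05 against 7.87, 7.68 and 8.08. Both were highest on chromium restriction array 1 and overlapped the controls on arrays 2 and 3. Their differences were 0.14 and 0.22, and the intervals of -0.33 to 0.60 and -0.32 to 0.77 included 0. A dimmer second probe set of Npc1 differed by -0.041. Npc2 was at 11.15 to 11.20 in the chromium restriction group, inside the wider control range of 10.91 to 11.49, and differed by -0.11.

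Stard4, a carrier that moves sterol between membranes in the cytosol and is itself an SREBP2 target, was at 6.93, 6.45 and 6.60 on chromium restriction arrays 1, 2 and 3 and at 6.11, 6.33 and 6.14 on control arrays 1, 2 and 3. All chromium restriction arrays were above all controls, with 0.12 between the nearest. The difference was 0.47 ± 0.14 (log2, SE, n = 3), 1.38-fold, with a 95% interval of 0.13 to 0.80 and an adjusted p of 0.751 in limma. On array 2 alone it was 0.26; the mean of the hepatocyte markers there (6.55) was no higher than in the controls, but 1 of the 7, Apoa1, was at 7.44 against 5.50 to 6.27 in the controls.

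The median difference of the 4 genes was 0.18. It was -0.024 without chromium restriction array 1 and -0.14 with the hepatocyte markers as a covariate, where Lipa and Npc1 were at -0.14 and -0.18. Array 1, the highest array for Lipa, Npc1 and Stard4, was also the highest for the hepatocyte markers and for 8 of the 12 macrophage markers, among them Cd68 (9.88 there, 8.55 to 9.40 elsewhere). Macrophage markers had higher means in the chromium restriction group in 9 of 12, with array means of 8.41 to 8.93 against 8.17 to 8.56. The part of either marker list in these values was not tested beyond the covariate.

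The 3 measured efflux genes were all lower in mean in the chromium restriction group, with a median difference of -0.37, and none passed. Abca1, the pump that loads cholesterol onto apolipoprotein A-I, was at 9.49, 9.64 and 9.60 on chromium restriction arrays 1, 2 and 3 and at 9.96, 9.89 and 9.999 on control arrays 1, 2 and 3. The groups were 0.25 apart at their nearest arrays, more than either SD (0.074 and 0.057). The difference was -0.37 ± 0.075 (log2, SE, n = 3), a 1.29-fold lower level with a 95% interval of -0.55 to -0.19, an unadjusted p of 0.00225 and an adjusted p of 0.489 in limma. Over the alternatives it ran from -0.40 to -0.31. Leaving aside those with 1 array in a group, its adjusted p in limma ran from 0.139 to 0.99995.

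Nr1h3, which encodes the liver X receptor alpha, was at 7.50, 7.67 and 7.43 against 7.80, 7.90 and 8.14 in the controls. Its groups were separate by 0.13. The difference was -0.41 ± 0.11 (log2, SE, n = 3), with an interval of -0.69 to -0.14 and an adjusted p of 0.707 in limma. Abcg1, the pump that moves cholesterol to formed lipoprotein particles, was at 7.79, 7.71 and 7.73 against 8.05, 7.77 and 8.16. Control array 2 lay inside the chromium restriction range, and the difference was -0.25 ± 0.11 (log2, SE, n = 3) with an interval of -0.53 to 0.019.

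The sign of the efflux genes was the same under all 18 alternatives. Some of these could not change it. The replicate block, all probe sets, averaged probe sets, and eBayes with trend and robust options return the same difference. So does leaving out dim genes or rows with extra digits. With the hepatocyte markers as a covariate the differences were -0.31 for Abca1, -0.30 for Nr1h3 and -0.29 for Abcg1. Without control arrays 1 and 3 they were -0.31, -0.37 and -0.031, so the Abcg1 value rested on those 2 controls. Adipocyte markers moved in the same direction: 8 of 8 measured had lower means in the chromium restriction group, with a median of -0.18 and array means of 11.52 to 11.76 against 11.92 to 12.07. Their part in the efflux values was not tested. Of these markers Pnpla2, the triglyceride lipase, differed by -0.35 and Fabp4 by -0.038, and Adipoq, at -1.22, lay in a row with extra digits. Adipoq had the largest of the 8 differences, followed by Plin1 at -0.44.

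**Figure D4:**
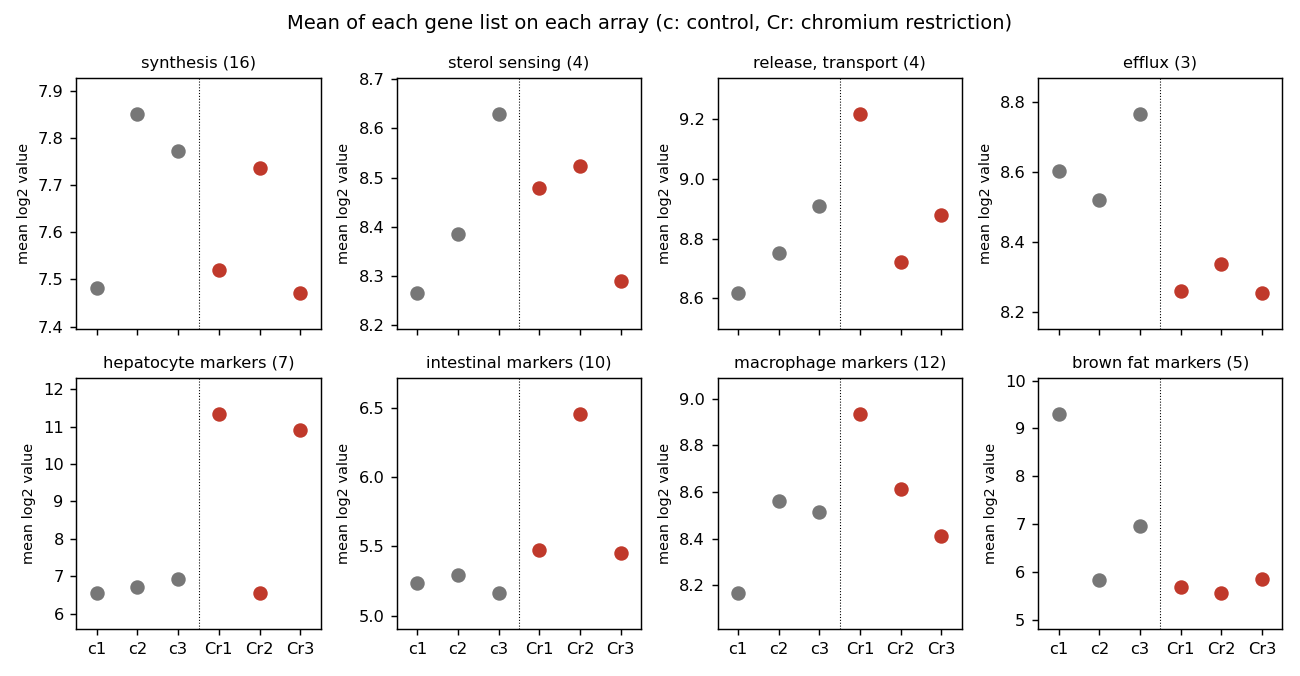
Mean log2 value of each gene list on each array, for the cholesterol genes by role (top) and for markers of other cell types (bottom); grey points are control arrays 1 to 3 (c) and red points are chromium restriction arrays 1 to 3 (Cr). Efflux is the 1 cholesterol panel in which the groups do not overlap, and the hepatocyte, intestinal and brown fat panels show the arrays that stand apart.

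Other genes of cholesterol handling gave 1 call among 29 measured of 31 listed, where 0.194% of all genes passed in limma. With the rows that carried extra digits left out, 0 of all genes passed. Srebf1, the lipogenic relative of Srebf2 and a target of liver X receptors, was at 9.53, 9.62 and 9.64 against 8.50, 8.60 and 8.45 in the controls. Its difference of 1.08 ± 0.075 (log2, SE, n = 3) had an adjusted p of 0.00470 in limma. The Srebf1 row is among those with extra digits, in 4 of its 6 values, and no source used here says how these were made. The difference stayed between 0.99 and 1.12 under every alternative that kept the row, but the call was lost in 5 of them in limma. It was 1.06 without chromium restriction array 3 (adjusted p = 0.0544) and 1.07 without control array 1 (adjusted p = 0.0514). It was 1.10 without the 2 hepatocyte-rich arrays (adjusted p = 0.136), 1.08 with the replicate block (adjusted p = 0.138) and 0.99 without the 2 Ucp1-rich controls (adjusted p = 0.700). The difference of Srebf1 was opposite in sign to those of Nr1h3, Abca1 and Abcg1.

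No other gene of this list passed, and its median difference was -0.031, with 12 higher and 17 lower. Gramd1b, an Aster protein that carries cholesterol from the plasma membrane, was at 5.90, 6.20 and 5.67 against 6.43, 6.45 and 6.19, a difference of -0.43 in which chromium restriction array 2 and control array 3 overlapped. Cyp27a1, the sterol hydroxylase of liver and macrophages, was at 8.93, 8.28 and 8.69 against 8.16, 7.85 and 8.32 and differed by 0.53, which became 0.18 with the hepatocyte markers as a covariate. Gramd1c, another Aster gene, differed by 0.19 and the lysosomal transporter gene Abca2 by -0.41. Lcat, the plasma enzyme that esterifies cholesterol and is made in liver, was at 9.15 and 8.32 on the 2 hepatocyte-rich arrays and 5.67 to 6.05 on the other 4. It passed in limma when array 2 was left out, at 2.82 (adjusted p = 0.00574), and not otherwise.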

How the data were processed

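The authors deposited 1 value table of 33793 probe sets on 6 arrays, here taken as log2 values from their range (3.49 to 14.86); no source used here states the log base, array processing or normalization. The values were used as deposited. The platform annotation supplied for this work gave a single symbol to 23521 probe sets, left 8458 unnamed and gave 1814 more than 1 symbol; for each of 22180 genes the brightest single-symbol probe set was kept. Of the deposited values 183, in 64 probe sets, carried more decimals than a single-precision number needs (rows with extra digits). Differences, chromium restriction minus control, came from limma 3.58.1 (lmFit, then eBayes) run under R 4.3.3 on all genes, as two-sided tests with Benjamini-Hochberg adjustment, and called at an adjusted p of 0.05. The fit was tested on simulated data. The number of arrays, 3 a group, limits the precision. The members and gene lists were chosen with earlier results of these data known. Named were all measured members, and of the other cholesterol genes the 5 with the smallest p; Lcat was added after its values were seen. Alternatives were median centring, quantile normalization, leaving out dim genes, other variance models, averaged probe sets, all probe sets, a replicate block, left-out arrays, left-out rows and a hepatocyte covariate. RefSeq promoters were matched by symbol.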

Additional observations from a re-analysis of the deposited data

How the results depend on the processing

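Of the 27 cholesterol genes, 14 kept their direction under all 18 alternatives, among them Fdft1, Hsd17b7, Dhcr7, Srebf2, Stard4, Nr1h3, Abca1 and Abcg1. Alternatives that alter only the test or the genes tested, such as the replicate block or leaving out dim genes, could not reverse a sign. The other 13 changed sign under at least 1 alternative, among them Lss and Insig1, which were at -0.56 and -0.32 with all arrays and no covariate. With the hepatocyte markers as a covariate Hmgcs1 was at 0.45, Lss 0.22, Ebp -0.18, Scap -0.0031, Insig1 0.0076, Npc1 -0.18 and Lipa -0.14, and the median of the release and transport genes was -0.14. Without the 2 hepatocyte-rich arrays Hmgcs1 was at 0.52, Lss 0.29, Ebp -0.17, Insig1 0.077, Npc1 -0.18 and Lipa -0.13. The covariate and the left-out arrays are not separate checks, as both rest mainly on chromium restriction array 2 against the controls. Without the 2 control arrays rich in Ucp1, chosen after seeing the data, Fdps was at -0.29, Sqle -0.016 and Msmo1 0.15, and the median of the synthesis genes was -0.32. Leaving out 1 array at a time gave ranges of -0.34 to 0.12 for Hmgcs1, -0.0043 to 0.20 for Mvk, -0.0093 to 0.076 for Mvd, -0.073 to 0.39 for Fdps, -0.34 to 0.095 for Tm7sf2, -0.13 to 0.10 for Msmo1, -0.0020 to 0.42 for Npc1 and -0.046 to 0.27 for Lipa.

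Members past the threshold in limma numbered 0 to 1 with 1 array left out, the 1 being Fdft1 without chromium restriction array 2, and 0 under every other alternative. All genes called numbered 24 to 439 with 1 array left out, with 439 reached without chromium restriction array 2; 6 without the 2 hepatocyte-rich arrays; 0 without the rows with extra digits; and 0 without the 2 Ucp1-rich arrays. Calls among the other cholesterol genes numbered 0 to 2 with 1 array left out, and 0 under each of those last 3 alternatives. The cause was not tested, except that Srebf1 itself lies in a row with extra digits.

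The labels do not say that the numbers pair samples, so they were not taken to do so. Deviations of same-numbered arrays had correlations of -0.12, -0.095 and 0.078 for numbers 1, 2 and 3. With 3 arrays a group, such values cannot exclude a pairing. With the replicate block 0 genes, 0 members and 0 other cholesterol genes passed, and Srebf1 had an adjusted p of 0.138.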
